A study of Mus musculus with 6 samples.

Results

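Ribosome biogenesis factors, the proteins that process and modify pre-ribosomal RNA and mature the ribosomal subunits, were followed here in cells labelled as fibroblasts derived from mouse embryonic stem cells (ES cells). The group was defined as 53 genes by symbol: proteins of the box C/D and box H/ACA particles, the small-subunit processome, late 40S and large-subunit maturation, RNase P and RNase MRP, and nucleolar phosphoproteins. A probe set was taken when the array annotation gave it exactly 1 gene symbol and that symbol was on the list. This gave 50 measured genes and 85 probe sets, out of 17097 genes and 45141 probe sets on the array. Gnl3, Rpp38 and Utp14a are not analysed here.

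RNA from 2 groups was hybridised to Affymetrix mouse expression arrays, 3 arrays labelled CD98hc KO (CD98hc null) and 3 labelled WT. CD98hc is the heavy chain shared by several amino acid transporters at the cell surface and is encoded by Slc3a2. Both groups are described as cells derived from ES cells and grown in complete high-glucose DMEM with serum and β-mercaptoethanol, and neither the number of cell lines or clones nor whether the 3 arrays of a label came from separate cultures is given. The replicates are numbered 1, 3 and 5 under each label, and p-values reflect the spread between these arrays alone, which may be technical.

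A ribosome is assembled largely in the nucleolus. The long pre-ribosomal RNA made by RNA polymerase I is modified by small nucleolar particles, folded and cut within the small-subunit processome, and separated into precursors of the small and the large subunit, which then mature during and after export to the cytoplasm. The genes for these factors are often transcribed together in growing cells, and ES cells are known for high rates of ribosomal RNA synthesis.

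The labels were first set against the arrays, whose values are RMA log2 intensities per probe set. A gene is called higher or lower, or said to rise, fall or pass, at a Benjamini-Hochberg adjusted p under 0.05 in limma over all genes. For Slc3a2 the values were 11.65, 11.57 and 11.54 log2 units on the arrays labelled CD98hc KO, against 10.64, 10.67 and 10.51 on those labelled WT. It was thus higher on the arrays labelled as lacking it, by 0.98 on the log2 scale (standard error, SE, 0.075, limma adjusted p = 0.00012), and whether its probe set lies inside the deleted part is not known here. The 14 pluripotency markers measured were all higher on the KO-labelled arrays, where their median level per array was 10.92 to 11.03, against 4.51 to 4.76 on the WT-labelled arrays. Of 15 markers of fibroblasts and their matrix, 11 were lower and 1, Thy1, was higher, with array medians of 5.11 to 5.29 under the KO label and 10.35 to 11.32 under the WT label. On the WT-labelled arrays most of the defining fibroblast markers were well above the nonspecific background of the array, whose median was 4.23, with Vim at 12.51 to 12.60, S100a4 at 11.57 to 11.95 and Pdgfrb at 7.39 to 8.38. Thy1, Pdgfra and Postn were near that background there, at 4.49 to 4.58, 4.39 to 4.70 and 4.78 to 4.95. On the KO-labelled arrays S100a4 was also near it, at 4.55 to 4.92. Mean levels there were 4.22 to 4.91 for Col6a1, Pdgfra, Col3a1, Thy1 and Postn, and 5.07 to 5.23 for Col6a2, Col5a2 and Col1a2. Those of Col1a1, Pdgfrb and Col5a1 were 6.17, 6.43 and 7.43. Furthest above the background under that label were Vim (10.39 to 10.90), Fn1 (9.82 to 10.39, not called) and Sparc (8.84 to 9.89). All 6 epithelial markers were higher on the KO-labelled arrays, 0 of 4 blood markers passed, and 2 of 4 endothelial markers were higher. Whether the labels match the genotypes was not settled by these values, and with the labels exchanged every direction given below would turn round. The genotype label and the cell type markers went with the same arrays and cannot be told apart, and the part of the markers in the results below was not tested. In whole cultures, more cells of a type and more RNA per cell cannot be told apart either.

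Of the 50 ribosome biogenesis factors 18 rose on the KO-labelled arrays, 1 fell and 31 did not pass. The log2 fold change (KO-labelled minus WT-labelled) was above 0 for 44 of the 50 genes and below 0 for 6, with a median of 0.34, against 0.018 over all genes. The shares called in limma were 36% higher and 2% lower, while 22.6% of all genes were higher and 19.2% were lower. With a limit of 2-fold as well, 5 factors were higher and 0 were lower, against 9.27% and 10.1% of all genes, so the share higher by over 2-fold was near that of all genes. The 3 KO-labelled values all lay above the 3 WT-labelled values in 22 genes (44%, against 28.1% of all genes) and all below in 2 (4%, against 23.4%), and the groups overlapped in 26.

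**Figure D1:**
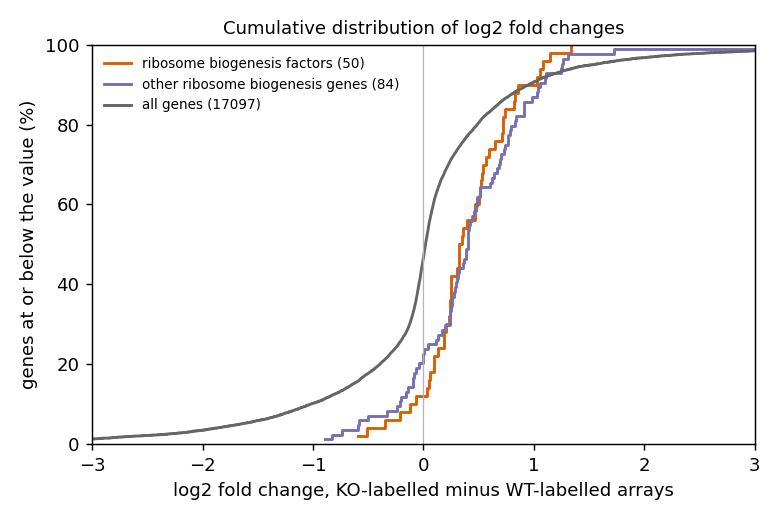
Cumulative distribution of the log2 fold change, KO-labelled minus WT-labelled arrays (x axis, shown from -3 to 3), as the percentage of genes at or below each value (y axis), for the 50 ribosome biogenesis factors, 84 other ribosome biogenesis genes and all 17097 genes. The curves of both biogenesis lists lie to the right of that of all genes around 0, with medians of 0.34 and 0.41 against 0.018, and the 50 factors span only -0.59 to 1.33.

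**Figure D2:**
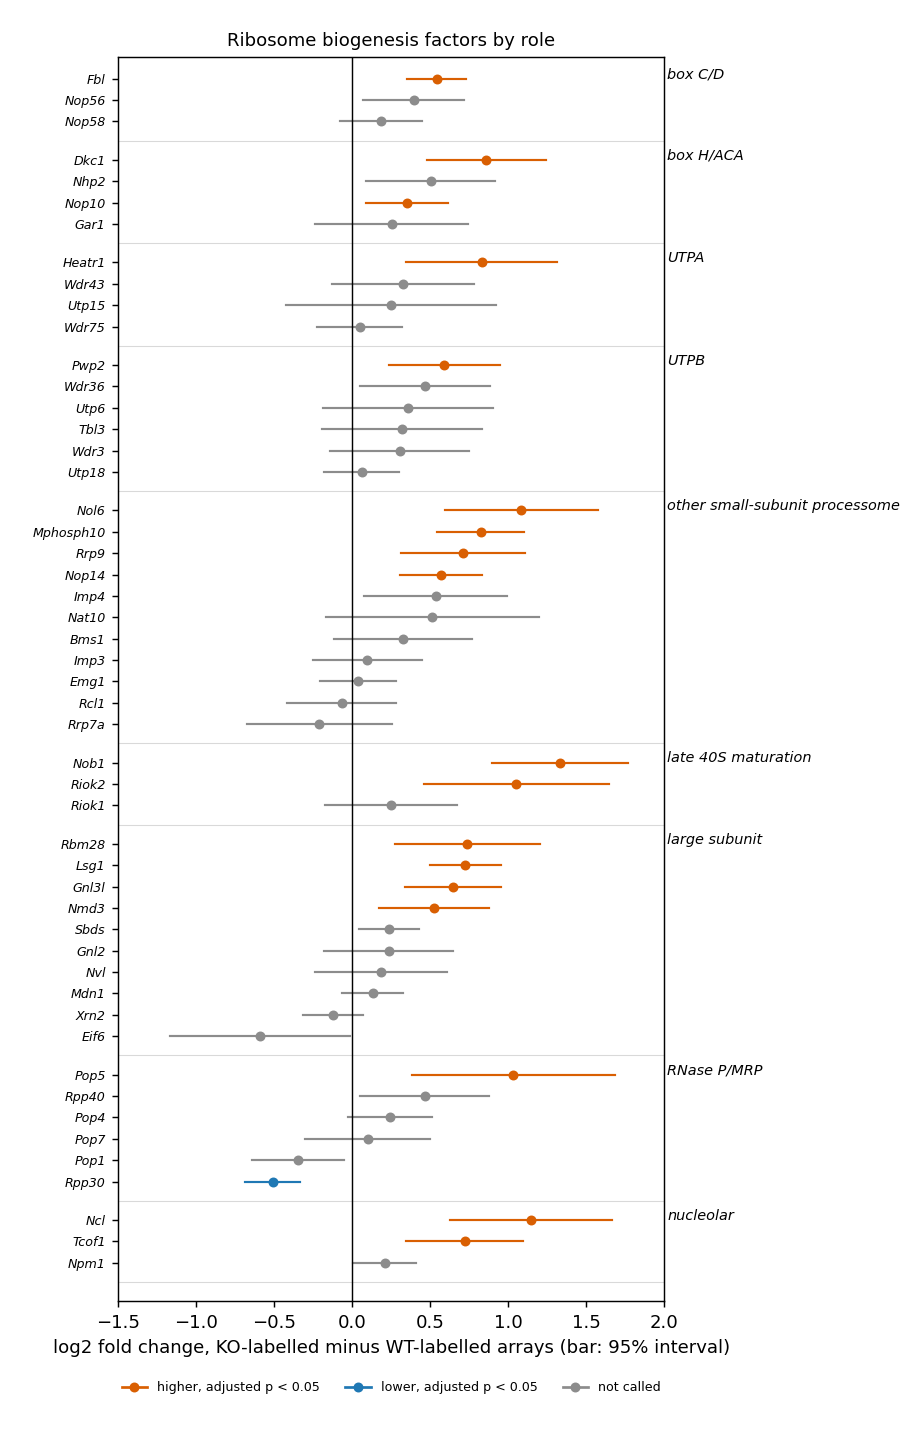
Log2 fold change of each of the 50 measured factors (x axis, KO-labelled minus WT-labelled arrays, n = 3 each) by role, with points for the estimate and bars for the 95% confidence interval from limma. The 18 genes called higher are spread over every role, with 1 to 4 in each, and Rpp30 is the gene called lower.

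The 5 factors that changed over 2-fold came from 4 roles. Nob1, the endonuclease that makes the last cut of 18S rRNA in the small subunit, had values of 10.70, 10.15 and 10.35 on the KO-labelled arrays, against 9.36, 8.89 and 8.97 on the WT-labelled arrays. The 2 sets of values were far apart, and the log2 fold change of 1.33 was the largest of the 50 (2.52-fold, SE 0.18, limma adjusted p = 0.0015). Ncl, which encodes nucleolin, an abundant RNA-binding protein of the nucleolus, had values of 10.29, 10.02 and 10.16 under the KO label, against 9.43, 9.03 and 8.57 under the WT label. Its log2 fold change was 1.15 (2.21-fold, SE 0.22, limma adjusted p = 0.0058), and the WT-labelled arrays were spread over a wider range than the KO-labelled ones. Nol6, a protein of the early small-subunit processome, had values of 10.44, 9.91 and 10.17 under the KO label and 9.43, 8.77 and 9.08 under the WT label, a log2 fold change of 1.08 (SE 0.20, limma adjusted p = 0.0058). Within each label replicate 1 was the highest and replicate 3 the lowest for Nol6.

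**Figure D3:**
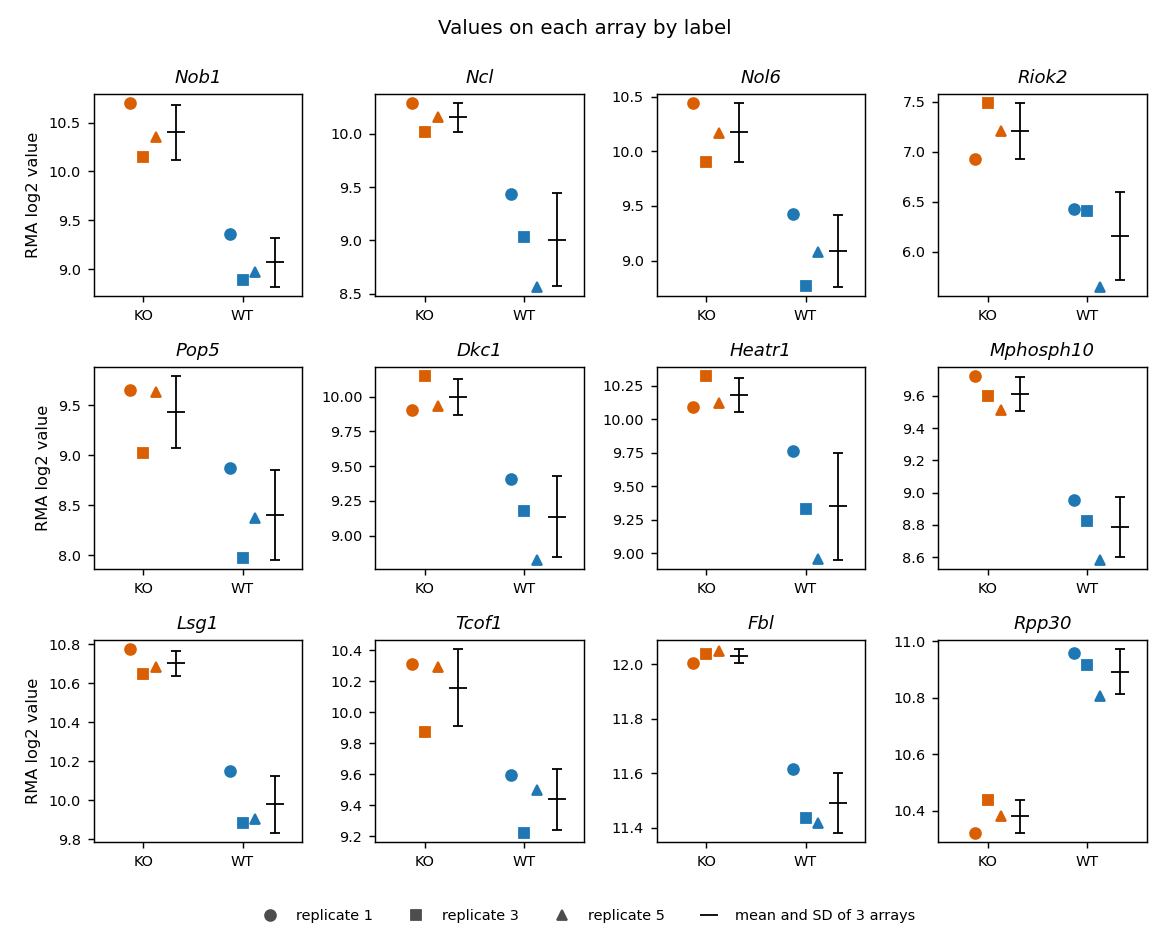
RMA log2 values (y axis, a separate scale for each gene) of 12 ribosome biogenesis factors on each array, KO-labelled left and WT-labelled right, with the replicate number as the symbol and the mean and SD of 3 arrays as the black bar. The groups do not overlap in any of the 12, with Rpp30 lower and the other 11 higher on the KO-labelled arrays, and WT replicate 1 is the highest of the WT-labelled arrays in all of them.

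In late 40S maturation, which takes place largely in the cytoplasm, 2 of 3 measured genes were higher, as were 22.6% of all genes. The median log2 fold change of the 3 was 1.05. Beside Nob1 the one that rose was Riok2, a kinase that, like its relative Riok1, acts on precursors of the small subunit. Riok2 had values of 6.93, 7.49 and 7.21 on the KO-labelled arrays, against 6.43, 6.40 and 5.65 on the WT-labelled arrays, a log2 fold change of 1.05 (SE 0.25, limma adjusted p = 0.014). Riok1 had values of 8.11, 8.71 and 8.22 under the KO label, against 8.22, 8.17 and 7.90 under the WT label, and the groups overlapped. Its log2 fold change of 0.25 did not pass (95% interval -0.18 to 0.67, limma adjusted p = 0.33). Another of its 4 probe sets, with a log2 fold change of 0.40, did pass when probe sets were tested one by one, so the array does not give a single answer for Riok1.

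The small nucleolar particles guide chemical changes of ribosomal RNA, ribose methylation in the box C/D family and pseudouridine in the box H/ACA family. Fbl, which encodes the methyltransferase fibrillarin, was the box C/D protein that rose. It had values of 12.004, 12.04 and 12.05 on the KO-labelled arrays, against 11.62, 11.44 and 11.42 on the WT-labelled arrays, a log2 fold change of 0.54 (SE 0.078, limma adjusted p = 0.0018). Its partners in the particle, the paralogues Nop56 and Nop58, did not pass. Nop56 had values of 11.35, 11.10 and 11.28 under the KO label and 11.11, 10.68 and 10.76 under the WT label (log2 fold change 0.39, 95% interval 0.07 to 0.72, limma adjusted p = 0.057). Nop58 had values of 11.73, 11.94 and 11.77 under the KO label and 11.75, 11.70 and 11.43 under the WT label (log2 fold change 0.18, 95% interval -0.08 to 0.45, limma adjusted p = 0.24). In both paralogues the highest WT-labelled array, replicate 1, lay within the range of the KO-labelled arrays, and the difference between the pair was not tested. With a covariate that set apart the replicate number with lower hybridisation controls under both labels, Nop56 passed (limma adjusted p = 0.028). This covariate takes up any difference of those arrays, not only that of the controls.

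Of the 4 box H/ACA proteins, Dkc1 and Nop10 rose (50% higher, against 22.6% of all genes). Dkc1, which encodes dyskerin, the pseudouridine synthase that also stabilises telomerase RNA, had values of 9.91, 10.15 and 9.93 on the KO-labelled arrays, against 9.41, 9.18 and 8.83 on the WT-labelled arrays. Its log2 fold change was 0.86 (1.81-fold, SE 0.16, limma adjusted p = 0.0053), and its other probe set also passed at a smaller 0.30. Nop10, a small protein that binds dyskerin, had a log2 fold change of 0.35 (limma adjusted p = 0.042). Nhp2 had a log2 fold change of 0.50 with groups that did not overlap (limma adjusted p = 0.056), and Gar1 one of 0.25 with overlapping groups. In the other, brighter probe set of Nhp2 the log2 fold change was 0.29 and the groups overlapped.

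The small-subunit processome is the large assembly that folds and cleaves the part of the precursor from which 18S rRNA is made. Of its 21 measured members 6 rose and 0 fell (28.6% higher, near the 22.6% of all genes), with a median log2 fold change of 0.33. In the UTPA subcomplex, which binds the precursor first, Heatr1 was the gene that rose. It had values of 10.09, 10.32 and 10.12 on the KO-labelled arrays, against 9.76, 9.33 and 8.96 on the WT-labelled arrays (log2 fold change 0.83, SE 0.20, limma adjusted p = 0.016). The log2 fold changes of Wdr43, Utp15 and Wdr75 were 0.33, 0.25 and 0.05 without passing, and Wdr75 had a mean level of 4.67, within 1 log2 unit of the nonspecific background. In the UTPB subcomplex Pwp2 rose, with values of 9.88, 10.02 and 9.99 under the KO label, against 9.64, 9.41 and 9.07 under the WT label (log2 fold change 0.59, SE 0.15, limma adjusted p = 0.018). The log2 fold changes of its partners Wdr36, Utp6, Tbl3, Wdr3 and Utp18 lay between 0.06 and 0.46 and none of these 5 passed, although the groups of Wdr36 did not overlap and its brighter probe set passed by itself (0.46, limma adjusted p = 0.047 over probe sets). Control transcripts added at hybridisation were lower on replicate 3 of both labels, in 16 of 16 probe sets. With a covariate that set replicate 3 apart from replicates 1 and 5, Tbl3 passed (limma adjusted p = 0.0078), as it did on the 4 arrays of replicates 1 and 5 (0.04). The covariate takes up any difference of replicate 3, not only that of the controls.

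Of the other 11 measured proteins of the processome, 4 rose (36.4%, against 22.6% of all genes): Nol6, described above, Mphosph10, Rrp9 and Nop14. Mphosph10, which forms a unit with Imp3 and Imp4 around the U3 RNA, had values of 9.72, 9.60 and 9.51 on the KO-labelled arrays, against 8.95, 8.83 and 8.58 on the WT-labelled arrays (log2 fold change 0.82, SE 0.11, limma adjusted p = 0.0016). The log2 fold changes of Imp4 and Imp3 were 0.53 and 0.10, and neither passed. Rrp9, a protein of the U3 particle itself, had values of 10.77, 10.33 and 10.53 under the KO label, against 10.13, 9.66 and 9.71 under the WT label (log2 fold change 0.71, SE 0.17, limma adjusted p = 0.014). Nop14 had a log2 fold change of 0.57 (limma adjusted p = 0.0064), with KO-labelled values of 11.14, 11.13 and 11.19 that lay closer together than the WT-labelled values of 10.81, 10.53 and 10.42.

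The remaining processome proteins include enzymes that act on 18S rRNA or its precursor. Nat10, an RNA acetyltransferase, had values of 9.07, 9.34 and 9.50 on the KO-labelled arrays, against 9.31, 8.88 and 8.19 on the WT-labelled arrays. The WT-labelled values of Nat10 were widely spread and overlapped the others, and its log2 fold change of 0.51 did not pass (95% interval -0.17 to 1.19, limma adjusted p = 0.21). For the GTPase Bms1 the log2 fold change was 0.32, for the methyltransferase Emg1 it was 0.04, for Rcl1 it was -0.07 and for Rrp7a -0.21. None of these 4 passed, although Bms1 did with the covariate for replicate 3 (limma adjusted p = 0.048).

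Among 10 measured factors of the large subunit, 4 rose and 0 fell, with a median log2 fold change of 0.24. The share higher was 40%, against 22.6% of all genes, while 19.2% of all genes were lower. Lsg1, a cytoplasmic GTPase that frees the export adaptor Nmd3 from the maturing large subunit, had values of 10.78, 10.65 and 10.68 on the KO-labelled arrays, against 10.15, 9.88 and 9.90 on the WT-labelled arrays. Its log2 fold change of 0.72 had a small SE (0.094, limma adjusted p = 0.0012). Nmd3 itself had a log2 fold change of 0.53 (limma adjusted p = 0.028), so both genes rose. Rbm28, a nucleolar RNA-binding protein, had values of 7.93, 8.41 and 8.07 under the KO label, against 7.47, 7.67 and 7.05 under the WT label (log2 fold change 0.74, SE 0.19, limma adjusted p = 0.022). The other probe set of Rbm28, the brighter one, had a log2 fold change of 0.07 and overlapping groups, so the call rests on 1 of 2 probe sets.

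Gnl3l, a nucleolar GTPase and the relative of nucleostemin (Gnl3), had values of 10.54, 10.23 and 10.11 on the KO-labelled arrays, against 9.63, 9.54 and 9.76 on the WT-labelled arrays. It rose by a log2 fold change of 0.65 (SE 0.13, limma adjusted p = 0.0071), and the pair with Gnl3 could not be compared here. Eif6, which keeps the new large subunit from joining the small one, was the factor with the lowest log2 fold change of the 50, -0.59. It had values of 7.32, 7.58 and 7.39 under the KO label, against 8.48, 8.08 and 7.51 under the WT label, where replicate 5 overlapped the KO-labelled range (95% interval -1.17 to -0.02, limma adjusted p = 0.095). The brighter probe set of Eif6 had a log2 fold change of -0.10. Sbds, which releases Eif6 from the large subunit, had a log2 fold change of 0.24 with groups that did not overlap (limma adjusted p = 0.056). For the GTPase Gnl2, the ATPases Nvl and Mdn1 and the exonuclease Xrn2 the log2 fold changes were 0.23, 0.19, 0.13 and -0.12. None of these passed, and Mdn1 was within 1 log2 unit of the nonspecific background. The groups of Xrn2 did not overlap in the probe set kept but did in its other probe sets.

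RNase P, which trims precursors of transfer RNA, and RNase MRP, which cuts pre-ribosomal RNA, share most of their protein subunits. Of 6 measured here 1 rose and 1 fell (16.7% each, against 22.6% higher and 19.2% lower among all genes). Pop5 had values of 9.65, 9.02 and 9.63 on the KO-labelled arrays, against 8.87, 7.97 and 8.37 on the WT-labelled arrays (log2 fold change 1.03, SE 0.27, limma adjusted p = 0.022). Rpp30 had values of 10.32, 10.44 and 10.38 under the KO label, against 10.96, 10.92 and 10.80 under the WT label, and fell by 0.51 on the log2 scale (SE 0.073, limma adjusted p = 0.0018). Rpp30 and Pop5 thus moved in opposite directions although both encode subunits of the same enzymes. The other, dim probe set of each had a log2 fold change near 0, 0.03 for Pop5 and 0.02 for Rpp30. Without WT replicate 1 that dim probe set was the more variable one of Rpp30, and the log2 fold change of the gene was then 0.07 (limma adjusted p = 0.86). Pop1, the largest protein of these enzymes, had values of 10.21, 10.35 and 10.53 under the KO label, against 10.85, 10.76 and 10.52 under the WT label (log2 fold change -0.35, limma adjusted p = 0.062). The log2 fold changes of Rpp40, Pop4 and Pop7 were 0.46, 0.24 and 0.10, with overlapping groups in all 3. The brighter probe set of Rpp40 had groups that did not overlap and passed by itself, at 0.45 (limma adjusted p = 0.024 over probe sets).

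In the probe set kept for each gene, all 3 nucleolar proteins had KO-labelled values above all WT-labelled ones, as did 28.1% of all genes. Beside Ncl, Tcof1, which encodes treacle, a factor of RNA polymerase I transcription, had values of 10.31, 9.87 and 10.29 on the KO-labelled arrays, against 9.60, 9.22 and 9.49 on the WT-labelled arrays (log2 fold change 0.72, SE 0.16, limma adjusted p = 0.01). Npm1, which encodes nucleophosmin, had values of 12.23, 12.22 and 12.23 under the KO label, against 12.13, 12.04 and 11.87 under the WT label. Its log2 fold change of 0.21 did not pass (95% interval 0.01 to 0.41, limma adjusted p = 0.096). The other, brighter probe set of Npm1 had a log2 fold change of 0.03 and overlapping groups. The array also carries control probe sets for the product, 18S rRNA. Their log2 fold changes were -0.03, -0.10 and 0.00 for the 3′, 5′ and middle probe sets, with adjusted p-values of 0.75, 0.64 and 0.99 over all probe sets in limma. The RNA was amplified before labelling, and how the amplification treats ribosomal RNA is not stated. The study's methods took a set amount of total RNA and normalised between arrays, so these values cannot show a change of ribosomal RNA per cell.

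Genes with more than 1 probe set gave a check on single values. Of the 25 factors with several probe sets, the log2 fold changes had 1 sign in 21, and all probe sets passed in 3 (Dkc1, Nol6 and Nop10), some in 10 and none in 12. Probe set by probe set, 26 of the 85 were higher and 1 was lower, against 20.1% higher and 19.4% lower among the 28898 named probe sets. The signs differed in Mdn1, Riok1, Rpp30 and Utp18. Heatr1 had 2 bright probe sets in close accord, 0.83 and 0.82, and a dimmer one at 0.65 that did not pass.

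**Figure D4:**
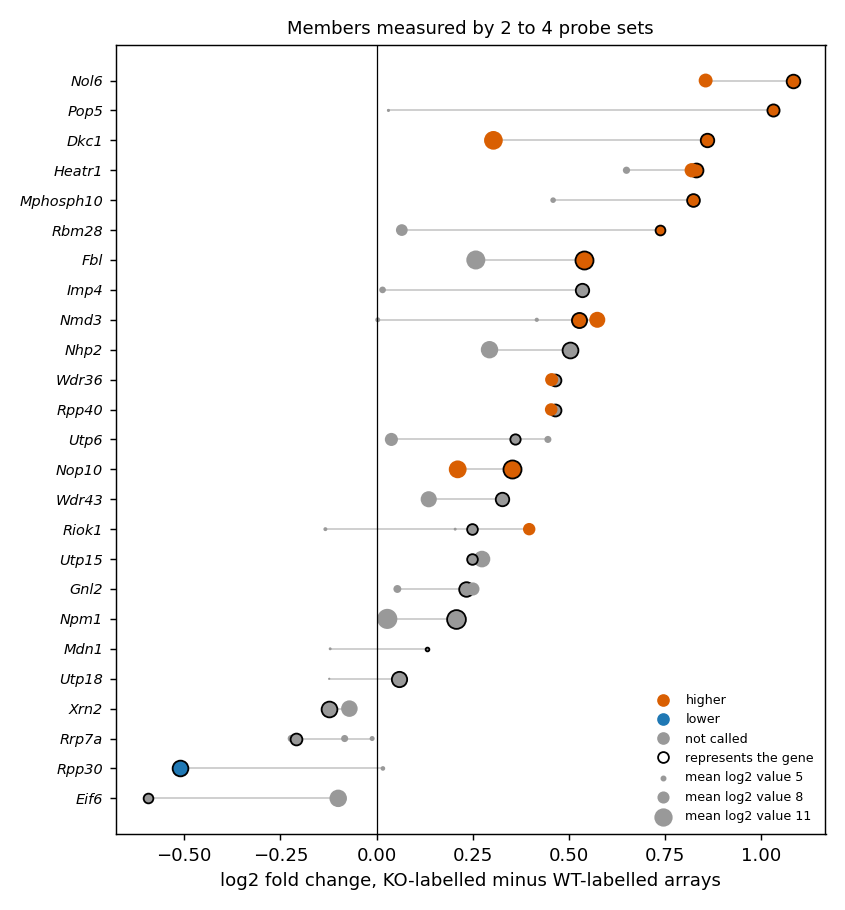
Log2 fold change (x axis, KO-labelled minus WT-labelled arrays) of each probe set of the 25 factors measured by 2 to 4 probe sets, ordered by the probe set that represents the gene (black outline), with dot area growing with the mean log2 value and colour for the call adjusted over probe sets. The widest gap is that of Pop5, 1.03 against 0.03 for a dim probe set, and 21 of the 25 genes keep to 1 side of 0.

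With 3 arrays under each label, some calls rested on single arrays. Pop5 did not pass without KO replicate 1, KO replicate 5, WT replicate 3 or WT replicate 5 (limma adjusted p between 0.06 and 0.072). Heatr1 did not pass without KO replicate 3, WT replicate 3 or WT replicate 5 (0.054 to 0.19), Pwp2 without KO replicate 3, KO replicate 5 or WT replicate 3 (0.051 to 0.056), and Rbm28 without KO replicate 3, KO replicate 5 or WT replicate 1 (0.0503 to 0.056). Mphosph10 did not pass without KO replicate 1 (0.19), Rrp9 without WT replicate 3 (0.051) and Nmd3 without KO replicate 1 or KO replicate 5 (0.11 and 0.16). In Mphosph10, in Nmd3 and, without KO replicate 3 or WT replicate 5, in Heatr1, a dimmer probe set then stood for the gene. When 1 array was left out, Nop10 passed without KO replicate 3 and not without any other array (0.058 to 0.12). The other 10 factors called higher passed whichever array was left out.

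The factors also moved together among the WT-labelled arrays. Against the mean of its own label, each factor was above that mean in 49 of 50 cases on WT replicate 1 (Gnl3l was the exception), in 24 on replicate 3 and in 6 on replicate 5, with median deviations of 0.20, -0.02 and -0.19. On KO replicates 1, 3 and 5 the counts were 24, 23 and 23, with median deviations of -0.01 on each. Of all 17097 genes 8041, 9060 and 8112 were above their label's mean on WT replicates 1, 3 and 5. The counts of all genes on KO replicates 1, 3 and 5 were 8434, 9007 and 7848. WT replicate 1 was above WT replicate 5 for 48 of 50 factors (96%), all but Gnl3l and Nop10, with a median difference of 0.39. Over all genes this held for 50.3%, with a median difference of 0.0017, a value that the normalisation between arrays holds near 0. The SD over WT-labelled arrays was larger than that over KO-labelled arrays in 41 of the 50 factors (82%, against 49.1% of all genes), with a median of 0.26 under the WT label and 0.15 under the KO label.

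**Figure D5:**
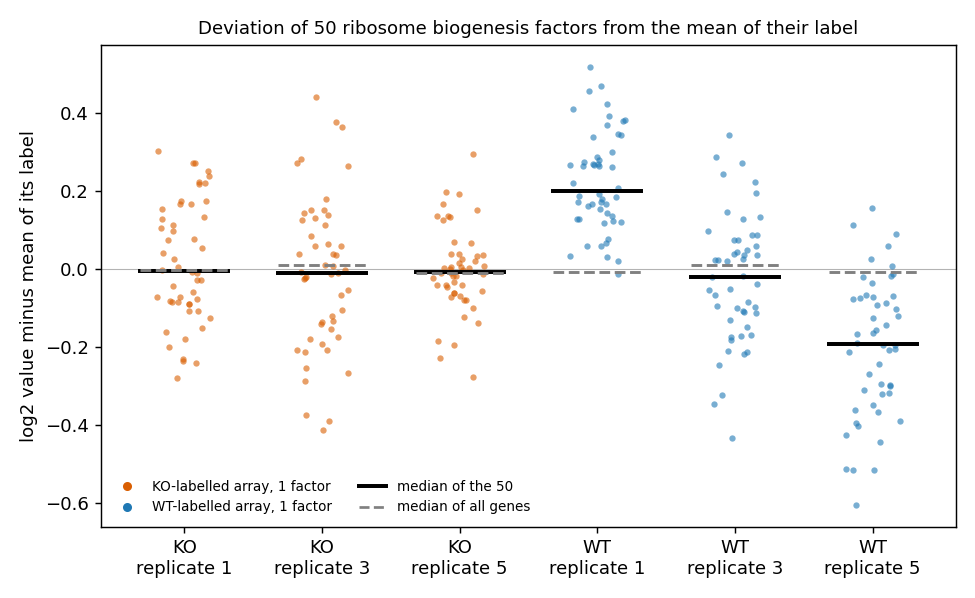
Deviation of each of the 50 factors from the mean of its label (y axis, log2 units) on each array, KO-labelled left and WT-labelled right, with the median of the 50 as a solid bar and that of all 17097 genes as a dashed bar. On WT replicate 1 all but 1 of the points lie above 0 and on WT replicate 5 mostly below it, with medians of 0.20 and -0.19, while the medians on the KO-labelled arrays are at -0.01.

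Single genes show the size of this spread. Nat10 differed by more than 1 log2 unit between WT replicate 1 (9.31) and WT replicate 5 (8.19), and Eif6, whose fold change was the lowest of the 50, also had its highest WT-labelled value on replicate 1. The median level of the 50 factors was 10.15, 10.05 and 10.12 on KO replicates 1, 3 and 5, against 9.64, 9.37 and 9.07 on WT replicates 1, 3 and 5, so all 3 WT-labelled arrays lay below the KO-labelled ones. Leaving out WT replicate 5 gave 15 factors higher and a median log2 fold change of 0.24, with 20.1% of all genes higher in that fit. Leaving out WT replicate 1 gave 23 higher and a median of 0.45, with 19.5% of all genes higher. Markers of fibroblasts and their matrix differed among the same arrays. Of 15 such genes, 3 were above their label's mean on WT replicate 1, 2 on replicate 3 and 14 on replicate 5. For all 17097 genes the counts on these arrays were 8041, 9060 and 8112. Those of the 14 pluripotency markers were 8, 5 and 8, and those of the 6 epithelial markers 3, 4 and 3. The difference between the 3′ and 5′ control probe sets of Gapdh, a sign of RNA integrity, stayed between -0.14 and -0.07 on all 6 arrays, and that of Actb was -0.27, -0.08 and -0.29 on WT replicates 1, 3 and 5. The part of the markers or of RNA integrity in the spread of the factors was not tested.

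Other genes of the pathway were counted from a list of 97 further symbols, of which 84 were measured. Of these 36 were higher (42.9%, against 22.6% of all genes) and 3 lower (3.57%, against 19.2%), with a median log2 fold change of 0.41. With the limit of 2-fold 11 were higher and 0 lower, against 9.27% and 10.1% of all genes. Rpp25, a further subunit of RNase P and MRP, had values of 9.55, 8.24 and 9.46 on the KO-labelled arrays, against 4.53, 4.80 and 4.20 on the WT-labelled arrays, where it was near the nonspecific background (log2 fold change 4.58, SE 0.37, limma adjusted p = 0.00015). This was a far larger change than in any of the 50 factors. Brix1, a factor of early large-subunit assembly, had values of 8.28, 9.01 and 8.88 under the KO label, against 7.21, 7.15 and 6.61 under the WT label, a log2 fold change of 1.73 (SE 0.24, limma adjusted p = 0.0016). Exosc5, a core subunit of the RNA exosome, had values of 11.70, 11.09 and 11.46 under the KO label, against 10.23, 9.93 and 10.14 under the WT label, a log2 fold change of 1.31 (SE 0.17, limma adjusted p = 0.0011).

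The 3 that fell were Riok3, a relative of Riok1 and Riok2, Rpp14, another protein associated with RNase P, and the nucleolar protein Nol7. Riok3 had values of 6.81, 7.44 and 6.74 on the KO-labelled arrays, against 7.96, 7.99 and 7.70 on the WT-labelled arrays, and fell by 0.89 on the log2 scale (SE 0.20, limma adjusted p = 0.012). Rpp14 had values of 8.75, 8.85 and 9.06 under the KO label, against 9.82, 9.82 and 9.52 under the WT label, and fell by 0.83 (SE 0.12, limma adjusted p = 0.002). Nol7 had values of 9.55, 9.996 and 9.45 under the KO label, against 10.39, 10.60 and 10.21 under the WT label, and fell by 0.74 (SE 0.17, limma adjusted p = 0.014). Among proteins of RNase P and MRP the 2 lists together thus hold genes that rose (Pop5, Rpp25) and genes that fell (Rpp30, Rpp14). Rpp25l, in the list of other genes, also rose (log2 fold change 0.83, limma adjusted p = 0.0047). Rpp21 in that list did not pass (log2 fold change 0.0049). The other 84 genes varied among the WT-labelled arrays as the 50 did, with 82 of 84 (97.6%) higher on WT replicate 1 than on WT replicate 5.

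The promoters of the factors were also read, as a description of their sequence. RefSeq gave a promoter for 38 of the 50, and the 250 bases before the start were searched on both strands for the E-box CACGTG, the site of MYC and related factors, and for the ETS core CCGGAAG, which reads CTTCCGG on the other strand, the site of GABPA and other ETS factors. The ETS core was found in 10 of 38 (26.3%), against 10.1% of the promoters of all measured genes and 6.91% of all promoters in the table. The E-box was found in 4 of 38 (10.5%), against 7.38% and 6.02%. Among factors that rose the ETS core was in 4 of 14 (28.6%), and among those not called in 6 of 23 (26.1%). The 3 promoters below are examples from GRCm38.p6, read 5′ to 3′ on the strand of the gene, with the motifs in capitals. Those of Lsg1 (chr16:30587590-30587839, minus strand) and Mphosph10 (chr7:64392237-64392486, minus strand), which both rose, carry the ETS core close to the start, and that of Utp18 (chr11:93885767-93886016, minus strand), with a log2 fold change of 0.06, carries both motifs.
Lsg1: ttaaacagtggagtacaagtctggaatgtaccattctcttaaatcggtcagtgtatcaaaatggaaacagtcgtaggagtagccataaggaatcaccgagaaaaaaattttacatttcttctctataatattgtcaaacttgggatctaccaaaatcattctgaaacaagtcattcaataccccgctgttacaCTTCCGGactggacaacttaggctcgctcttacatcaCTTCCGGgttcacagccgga
Mphosph10: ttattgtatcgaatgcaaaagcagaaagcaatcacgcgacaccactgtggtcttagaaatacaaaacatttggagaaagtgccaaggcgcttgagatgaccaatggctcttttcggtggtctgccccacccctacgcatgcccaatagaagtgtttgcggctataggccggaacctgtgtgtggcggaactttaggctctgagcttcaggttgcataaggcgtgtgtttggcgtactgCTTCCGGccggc
Utp18: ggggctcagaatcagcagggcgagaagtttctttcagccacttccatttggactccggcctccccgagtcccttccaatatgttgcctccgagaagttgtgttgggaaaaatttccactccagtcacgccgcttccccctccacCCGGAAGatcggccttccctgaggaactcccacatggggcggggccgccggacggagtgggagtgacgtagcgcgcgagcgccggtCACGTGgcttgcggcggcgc
The ETS core starts 57 and 20 bases before the start of Lsg1 and 12 bases before that of Mphosph10. In Utp18 it starts 106 bases and the E-box 20 bases before the start. Heatr1 and Pwp2, which also rose, carry the ETS core at 16 and 21 bases. Other factors not called also carry the ETS core close to the start, at 11 bases in Nvl, 23 in Nhp2 and 43 in Gar1. It lies at 44 and 120 bases in Emg1 and at 108 in Bms1, also not called. These matches are descriptions of the sequence and no measure of binding.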

How the data were processed

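RNA of cells labelled CD98hc KO (3 arrays) and WT (3 arrays) was extracted (with Trizol and an RNeasy kit per the labels, with a PureLink kit per the study's methods), amplified with a whole-transcriptome kit and hybridised to Affymetrix mouse arrays. The authors made the deposited log2 values by RMA, with background correction, normalisation between arrays and 1 value per probe set (affyPLM, version not given in the sources used here). The values were used as deposited, and depth has no counterpart on an array, so the number of arrays limits the precision. RMA shrinks differences of dim probe sets, and probe sets of 1 gene can disagree.

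Of the 45141 probe sets, 28898 had 1 gene symbol in the platform annotation, 551 several and 15692 were unnamed here. For each of the 17097 genes the most variable probe set (largest SD across all 6 arrays) was kept, as in the study's methods. KO-labelled minus WT-labelled arrays were compared by limma 3.58.1 under R 4.3.3 (lmFit, then eBayes), with Benjamini-Hochberg adjustment over all genes and a threshold of 0.05. The study's model holds the scan batch, which is not given per array, so no covariate was used. Hybridisation controls (16 probe sets) were lower by a mean difference of -1.24 on replicate 3 of both labels than on replicates 1 and 5.

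The members and gene lists were chosen with earlier results of these data known. Full values were given for the 12 largest called changes, every member called lower, the largest called change in each role, the pairs Nop56 and Nop58, Gnl3 and Gnl3l, and Riok1 and Riok2, and the 3 largest changes in each direction of the other biogenesis genes. Values of Nop14, Nat10, Eif6, Pop1, Npm1 and of the markers were added after they were seen. The fit was tested on simulated data with known changes. The alternatives were a replicate block, replicate 3 against replicates 1 and 5 as a covariate (for the hybridisation difference), and replicates 1 and 5 alone. Others were other choices of probe set, more normalisation, removal of dim probe sets, another variance model, a fold limit and each array left out. Promoter sequences were from RefSeq (GRCm38.p6). The plots were made in Python 3.11.15 with matplotlib 3.10.9.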

Additional observations from a re-analysis of the deposited data

How the results depend on the processing

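Over the alternatives that kept the threshold without a fold limit, 12 to 25 of the 50 ribosome biogenesis factors were higher, against 18 in the fit reported, and 0 of those 18 changed sign. The 12 came from replicates 1 and 5 alone, where 18.8% of all genes were higher. Leaving out each array in turn gave 13 to 23 factors higher and 0 to 3 lower, 25 to 43 of the 84 other biogenesis genes higher and 3 to 7 lower (19.2% to 21.6% of all genes higher), and a median log2 fold change of the factors of 0.24 to 0.45. Of the 19 called factors 5 (Nol6, Nob1, Lsg1, Tcof1 and Ncl) passed under each of 16 alternatives without a fold limit, and 14 factors not called passed under at least 1 of them. With the change limited to over 2-fold, 5 factors and 11 other genes were higher and 0 of either lower. The count of lower factors, 1 as reported, was 0 with the mean of a gene's probe sets and 2 with arrays centred on their medians. It was 2 without KO replicate 5 (with Pop1 added), 0 without WT replicate 1 and 3 without WT replicate 5 (with Pop1 and Eif6 added). Leaving out each array in turn, the log2 fold change of Rpp30 ranged between -0.56 and 0.07. Without WT replicate 1 it was 0.0682 (adjusted p = 0.86 from limma), since its dim probe set then had the largest SD and stood for the gene. Under the other alternatives the adjusted p of Rpp30 ranged up to 0.16, with the mean of its probe sets. The count of lower other genes, 3 as reported, was 5 with replicate 3 set apart by a covariate. It was 1 with the brightest probe set of each gene and 7 without WT replicate 5. With the replicate number as a block it was 6, and the block gave 25 factors higher, the 18 reported among them, when 25% of all genes were higher. Among the 7 added were Tbl3 (adjusted p = 0.014) and Nop56 (0.019, both from limma).

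The replicate numbers were not taken to pair the arrays in the fit reported. The deviations of KO-labelled and WT-labelled arrays of 1 number correlated at 0.06, 0.56 and 0.15 for numbers 1, 3 and 5. Those of different numbers correlated at -0.40 to 0.31. Whether the numbers pair the arrays is not given, and the replicate block above is the fit that allows for it. With the brightest probe set in place of the most variable one, Rbm28 had a log2 fold change of 0.07 (adjusted p = 0.66) and Fbl 0.26 (adjusted p = 0.14, both from limma). Centring the arrays on their medians moved the median of all genes by -0.08. No limit of detection was set, and Wdr75 and Mdn1 lay within 1 log2 unit of the nonspecific background.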
